A study of Mus musculus with 21 samples.

Results

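The CpGs of the 4 Hox clusters in mouse sperm are described here. A CpG belongs to a cluster when its listed position lies in 1 of 4 windows of the mm9 genome build: HoxA at chr6:52100000-52215000, HoxB at chr11:96050000-96232000, HoxC at chr15:102745000-102870000 and HoxD at chr2:74490000-74605000. By this rule, which uses positions and no measured value, 11612 of the 15544856 CpGs in the deposited table are members. The table comes from 1 bisulfite library of nucleosome-associated DNA from sperm of C57BL/6 mice (C57BL/6J in the labels' protocol), and the other 20 of the 21 samples of the series were not analysed here. The sperm were collected by swim-up, a step that enriches motile cells, and their chromatin was cut with micrococcal nuclease (MNase) to mononucleosomes, so the reads sample DNA protected by nucleosomes. Bisulfite converts unmethylated cytosine, which is then read as thymine, and leaves methylated cytosine read as cytosine. A DNA library has no marker transcripts, so the cell type rests on the labels alone. With 1 library there is no replicate, no test between groups was possible, and each interval below covers counting error at most.

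Hox genes encode homeodomain transcription factors that give cells their position along the body axis and in the limbs, and they lie in each cluster in the order in which they are used from head to tail. In embryonic stem cells the clusters are known as long CpG-rich domains that are free of DNA methylation and are held silent by Polycomb proteins. Mature mouse sperm packages most of its DNA with protamines and keeps nucleosomes mainly at CpG-rich unmethylated DNA, which is what makes the clusters of interest in this library.

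RefSeq promoter sequences, from 250 bases before to 50 bases after a transcription start, show how differently the CpGs are spaced from gene to gene. The promoter table held 22 of the 39 Hox genes of the clusters: 9 of 11 in HoxA and 9 of 9 in HoxD, but 3 of 10 in HoxB and 1 of 9 in HoxC. A place given between 2 promoters below refers to placed promoters, and Hox genes missing from the table can lie between them. The 24 promoters of the 22 genes were placed on the deposited positions by the spacing of their CpGs. The next 6 are shown because they carry the extremes of level, coverage and CpG number among them. They are written 5′ to 3′ in the direction of transcription, with every CpG in capitals, and their coordinates are those of RefSeq on GRCm38.p6, whereas all other coordinates are those of the deposited table on mm9.
Hoxa3, chr6:52213018-52213317, minus strand: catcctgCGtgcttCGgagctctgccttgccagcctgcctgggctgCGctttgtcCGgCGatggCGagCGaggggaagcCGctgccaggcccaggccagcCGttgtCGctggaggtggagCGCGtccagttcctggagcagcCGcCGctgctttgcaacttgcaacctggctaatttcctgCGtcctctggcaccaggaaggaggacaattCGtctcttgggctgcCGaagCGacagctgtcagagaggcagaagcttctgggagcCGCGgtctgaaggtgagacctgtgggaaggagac
Hoxa13, chr6:52260831-52261130, minus strand: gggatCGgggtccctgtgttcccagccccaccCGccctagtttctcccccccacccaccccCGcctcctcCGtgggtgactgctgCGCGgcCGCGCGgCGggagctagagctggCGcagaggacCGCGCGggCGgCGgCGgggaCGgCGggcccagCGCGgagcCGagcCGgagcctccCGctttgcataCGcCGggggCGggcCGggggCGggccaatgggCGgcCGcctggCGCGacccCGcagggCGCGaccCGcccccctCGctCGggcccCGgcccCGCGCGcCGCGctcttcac
Hoxa10, chr6:52234890-52235189, minus strand: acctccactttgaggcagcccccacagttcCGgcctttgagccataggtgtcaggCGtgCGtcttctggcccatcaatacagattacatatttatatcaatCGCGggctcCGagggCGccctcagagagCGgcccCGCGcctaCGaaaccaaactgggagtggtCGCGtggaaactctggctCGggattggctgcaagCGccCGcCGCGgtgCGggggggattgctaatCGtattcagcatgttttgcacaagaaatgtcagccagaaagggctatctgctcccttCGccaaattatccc
Hoxd13, chr2:74667975-74668274, plus strand: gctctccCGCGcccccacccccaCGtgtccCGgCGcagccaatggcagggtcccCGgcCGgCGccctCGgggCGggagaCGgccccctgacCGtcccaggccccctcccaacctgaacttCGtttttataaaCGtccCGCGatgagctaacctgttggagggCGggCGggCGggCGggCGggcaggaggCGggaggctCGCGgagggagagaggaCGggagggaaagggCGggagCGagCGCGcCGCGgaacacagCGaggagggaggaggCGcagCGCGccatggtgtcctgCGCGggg
Hoxd1, chr2:74762730-74763029, plus strand: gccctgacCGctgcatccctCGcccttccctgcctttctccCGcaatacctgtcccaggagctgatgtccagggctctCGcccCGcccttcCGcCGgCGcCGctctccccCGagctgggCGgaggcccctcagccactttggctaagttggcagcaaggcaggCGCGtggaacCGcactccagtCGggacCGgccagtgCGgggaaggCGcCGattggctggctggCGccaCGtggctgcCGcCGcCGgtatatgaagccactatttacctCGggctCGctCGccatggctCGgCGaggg
Hoxd4, chr2:74721728-74722027, plus strand: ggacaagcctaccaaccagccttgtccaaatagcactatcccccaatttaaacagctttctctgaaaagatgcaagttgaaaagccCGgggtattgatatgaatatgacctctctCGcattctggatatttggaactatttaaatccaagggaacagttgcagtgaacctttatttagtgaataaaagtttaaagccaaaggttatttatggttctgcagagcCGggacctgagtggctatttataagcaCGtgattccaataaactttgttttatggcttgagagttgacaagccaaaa
Hoxa13 has 45 CpGs in its 300 bases, Hoxd13 37, Hoxd1 29, this Hoxa10 start 21, Hoxa3 20 and Hoxd4 4, beside a median of 7 over the 32851 promoters in the table. The GC box GGGCGG, or CCGCCC on the other strand, was found in 10 of the 24 placed Hox promoters and in 35.7% of all promoters in the table. The TATA box letters TATAAA, or TTTATA on the other strand, were found in 4 of the 24 and in 13.6% of all. Both motifs were counted as letters anywhere in the 300 bases, so a match need not lie where such a box works.

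All 4 clusters had low methylation levels beside the 200 kb on each side. The methylation level is the share of methylated reads among all reads of listed CpGs with up to 19 reads, given with its 95% Wilson interval. A read is counted at every CpG it covers, so read numbers given for a stretch are sums over CpGs and not numbers of molecules. HoxD had 8.64% (8.20 to 9.09), against 74.4% in its flanks. HoxC had 11.1% (10.5 to 11.7), against 51.4% in its flanks. HoxA had 14.6% (14.1 to 15.2), against 61.3% in its flanks. HoxB had 22.1% (21.4 to 22.9), against 62.0% in its flanks. The intervals of the 4 clusters do not overlap each other, and the level rose in the order HoxD, HoxC, HoxA and HoxB. As a read is counted at every CpG it covers, these intervals are too narrow to place the order beyond counting error. Taken as one, the clusters had 14.1% (13.8 to 14.4), against 61.1% in the flanks and 73.9% in the rest of the autosomes.

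The flanks themselves were uneven. On the HoxA side, the lower flank had 80.7% and the upper flank, which holds the promoter of the homeobox gene Evx1, 49.5%. HoxB had 49.7% in the lower flank and 76.5% in the upper one, HoxC 59.8% and 44.5%, and HoxD 72.6% and 75.9%. Every one of these 8 flanks lay above the level of its own cluster.

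The clusters were also rich in listed CpGs. HoxD held 26.3 listed CpGs per kb, HoxA 25.7, HoxC 18.7 and HoxB 18.1, against 8.69 over all flanks. Coverage, counted as reads per listed CpG, was 5.06 ± 3.24 in HoxD (SD over CpGs), 4.66 ± 3.18 in HoxA, 4.63 ± 3.1 in HoxC and 3.98 ± 2.76 in HoxB. Their flanks had 3.06 beside HoxD, 3.56 beside HoxA, 3.57 beside HoxC and 3.31 beside HoxB. The ratio of cluster over flanks was 1.65 for HoxD (95% interval 1.60 to 1.71), 1.31 for HoxA (1.26 to 1.35), 1.30 for HoxC (1.25 to 1.34) and 1.20 for HoxB (1.17 to 1.24). These intervals take CpGs as independent although neighbouring CpGs share reads, so they are too narrow. No input library was analysed here, so reads per listed CpG is a coverage value and not a count of nucleosomes. CpGs without a read are not listed, and a distribution truncated at 0 put their share at 5.13% in HoxD and 10.6% in HoxB, against 17.9% in the HoxD flanks and 13.6% in the HoxB flanks.

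Single CpGs gave the same order of clusters. At 10 or more reads, 922 CpGs of the clusters could be read singly, and 90.1% of them were methylated under 20%, against 60.9% of 358 such CpGs in the flanks and 46.6% of those in the rest of the autosomes. Over 80% were 8 of the 922 (0.868%), of which 5 lay in HoxB, against 14.5% in the flanks and 34.2% in the rest of the autosomes. No methylated read at all was seen at 576 of the 922 (62.5%), against 39.9% in the flanks and 34.8% in the rest. HoxD had 95% of its CpGs of this depth under 20%, HoxC 90.2%, HoxA 87.6% and HoxB 85.1%. Deeply read CpGs are a selected set, and their mean level of 6.63% in the clusters is below the pooled level of 14.1%.

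The profile along each cluster was read in 1 kb bins with at least 10 reads, called low under 20% and high over 80%. Of 478 such bins in the clusters, 233 (48.7%) were low, whereas 6.49% of 1232 bins in the flanks and 2.35% of the bins in the rest of the autosomes were low. Low bins were not limited to the windows, as the flanks held 80 of them. High bins were 61 (12.8%) in the clusters, against 67.3% in the flanks and 76.5% in the rest of the autosomes. HoxD had 70 low, 26 intermediate and 9 high bins among 105. HoxC had 58 low, 45 intermediate and 4 high bins among 107. HoxA had 50, 44 and 10 among 104, and HoxB 55, 69 and 38 among 162. HoxB therefore held 38 of the 61 high bins. Intermediate bins made up 38.5% of the bins in the clusters, against 26.2% in the flanks and 21.2% in the rest of the autosomes.

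**Figure D1:**
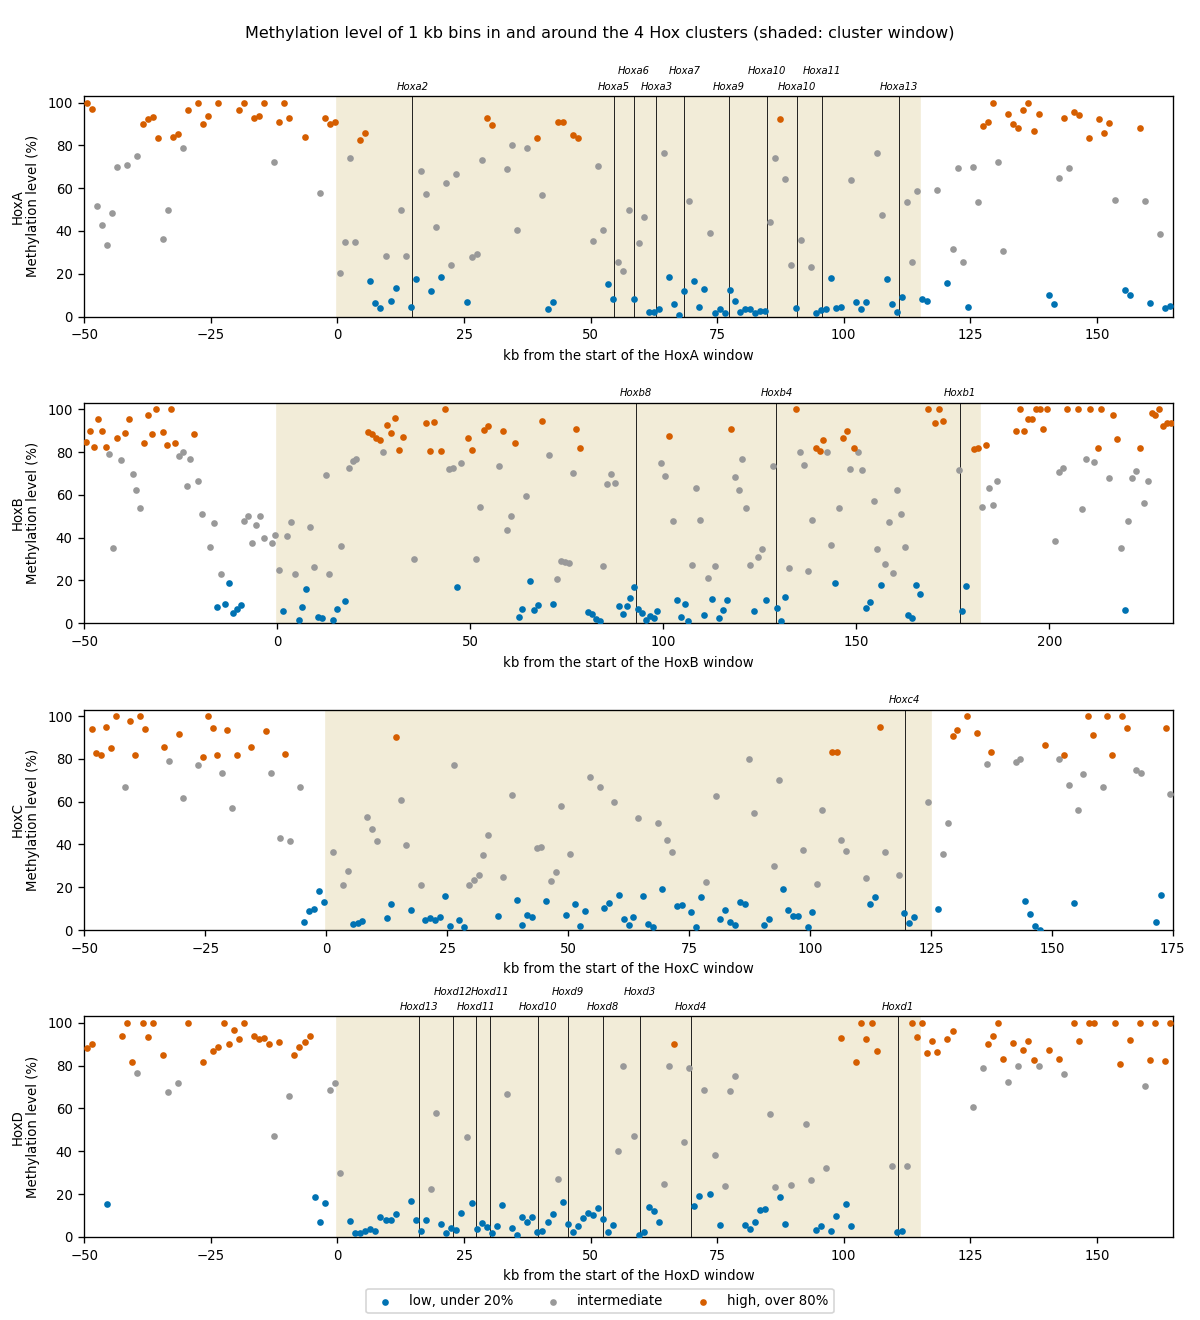
Methylation level of each 1 kb bin with at least 10 reads (vertical axis, in percent) by distance from the start of the window in kb (horizontal axis), with 50 kb of flank on each side; the shaded part is the cluster window and the vertical lines are placed promoters of Hox genes. Low bins fill much of all 4 windows, high bins lie mostly outside them, and HoxB shows 38 high bins inside its window whereas HoxC shows 4.

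Low bins were more frequent than elsewhere at every number of CpGs. Among bins with 15 or more listed CpGs, 208 of 271 in the clusters (76.8%) were low, against 34.4% in the flanks and 17% in the rest of the autosomes. Among bins with 6 to 14 listed CpGs, 23 of 160 (14.4%) were low, against 0.658% in the flanks and 0.372% in the rest of the autosomes. Among bins with 1 to 5 listed CpGs, 2 of 47 (4.26%) were low, against 1.14% in the flanks and 0.0976% in the rest. This class thus rests on 2 low bins. Most bins with 1 to 5 listed CpGs were not high either: 34.0% were high in the clusters, against 76.8% in the flanks and 78% in the rest of the autosomes. For bins with 6 to 14 listed CpGs the share of high bins was 23.1% in the clusters, against 74.7% in the flanks and 80% in the rest of the autosomes.

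In HoxA the longest low stretch lay at posterior genes, and 9 of the 10 high bins lay on the anterior side of it. Its longest unbroken row of low bins ran over 11 bins at chr6:52174000-52185000, with a level of 3.1% (2.49 to 3.86) and 5.62 reads per listed CpG. It held the promoter of Hoxa9, and 1 promoter of Hoxa10, at chr6:52184889-52185188, lay partly in it and mostly past its end. Both are posterior genes active in limb, uterus and blood progenitors. That Hoxa10 promoter had 24.0% (12 of 50 reads), and the Hoxa9 promoter, with 4 CpGs, 27.3% (6 of 22 reads). No high bin lay in the 39 kb at chr6:52148000-52187000, which reach from the promoter of Hoxa5 to that of Hoxa10 and had 11.1%. Of the high bins 7, all in the middle part of the window, lay between the promoters of 5730596B20Rik, a long noncoding RNA gene, and Hoxa5. Among them, the bin at chr6:52144000-52145000 had 91.1% (51 of 56 reads) and the one at chr6:52130000-52131000 had 89.4% (42 of 47 reads). The 3 others named by read number, at chr6:52147000-52148000, chr6:52146000-52147000 and chr6:52139000-52140000, had 83.3%, 84.6% and 83.3%, with 30, 26 and 18 reads. The highest level in HoxA was 92.9% (13 of 14 reads) at chr6:52129000-52130000.

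In HoxB the low bins were broken into many short rows. The longest again had 11 bins, at chr11:96138000-96149000, with 5.34% (4.35 to 6.55), and held the promoter of Hoxb8, a gene of the trunk. The longest stretch without a high bin was 23 kb at the lower end, chr11:96050000-96073000, with 16.1%. This end holds the promoter of the long noncoding RNA gene Gm30134, and in the RefSeq order Hoxb13 is the Hox gene nearest to it. Hoxb13 and Hoxb9, which come before Hoxb8 in the RefSeq order, are missing from the promoter table. The middle part of the HoxB window held 12 high bins, of which the 5 with the most reads all lay between the placed promoters of Gm30134 and Hoxb8. These were chr11:96100000-96101000 with 81.0% (51 of 63 reads), chr11:96099000-96100000 with 86.4% (19 of 22), chr11:96128000-96129000 with 81.8% (18 of 22), chr11:96103000-96104000 with 90.5% (19 of 21) and chr11:96111000-96112000 with 84.2% (16 of 19). The bin at chr11:96093000-96094000 was methylated in 15 of 15 reads.

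HoxC and HoxD had the longest stretches without a high bin. In HoxC it was 89 kb at chr15:102760000-102849000, or 71.2% of the window, with a level of 10.3%. Of its 81 scored bins 48 were low, yet the longest rows of low bins had 6, at chr15:102765000-102771000 with 5.62% (4.45 to 7.08) and at chr15:102826000-102832000 with 7.01% (5.25 to 9.32). No bin in the middle part of HoxC was high, and the highest level, 95% (19 of 20 reads), lay at chr15:102859000-102860000 between the promoters of Gm29905 and Hoxc4. In HoxD the stretch was 66 kb at chr2:74490000-74556000, or 57.4% of the window, with 5.67%, and 51 of its 62 scored bins were low. It reaches from Evx2, a homeobox gene beside the posterior end, over Hoxd13, Hoxd12, Hoxd11, Hoxd10, Hoxd9 and Hoxd8 to Hoxd3. Its longest row of low bins, 11 bins at chr2:74534000-74545000, held the promoters of Hoxd9 and Hoxd8 and had 5.07% (4.30 to 5.96). The first high bin beyond it, at chr2:74556000-74557000, had 9 of 10 reads methylated and lay between the promoters of Hoxd3 and Hoxd4. The highest level in HoxD was 24 of 24 methylated reads at chr2:74593000-74594000, between Gm14424 and Hoxd1.

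Coverage peaked in low bins in all 4 clusters. The best covered bin of HoxB, chr11:96203000-96204000, had 11.9 reads per listed CpG over 39 CpGs and a level of 10.1%. In HoxD the bin at chr2:74584000-74585000 had 8.84 reads over 63 CpGs and 3.41%. In HoxC the bin at chr15:102812000-102813000 had 8.23 reads over 81 CpGs and 1.5%. In HoxA the bin at chr6:52203000-52204000 had 8.18 reads over 67 CpGs and 3.47%. None of these 4 bins held a placed promoter, but most Hoxb and Hoxc genes are missing from the promoter table. For HoxB and HoxC this therefore does not show that the bins lie away from Hox promoters. The median over the scored bins was 4.55 reads in HoxD, 3.97 in HoxA, 3.86 in HoxC and 3.43 in HoxB, against 3.08 over all flanks.

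**Figure D2:**
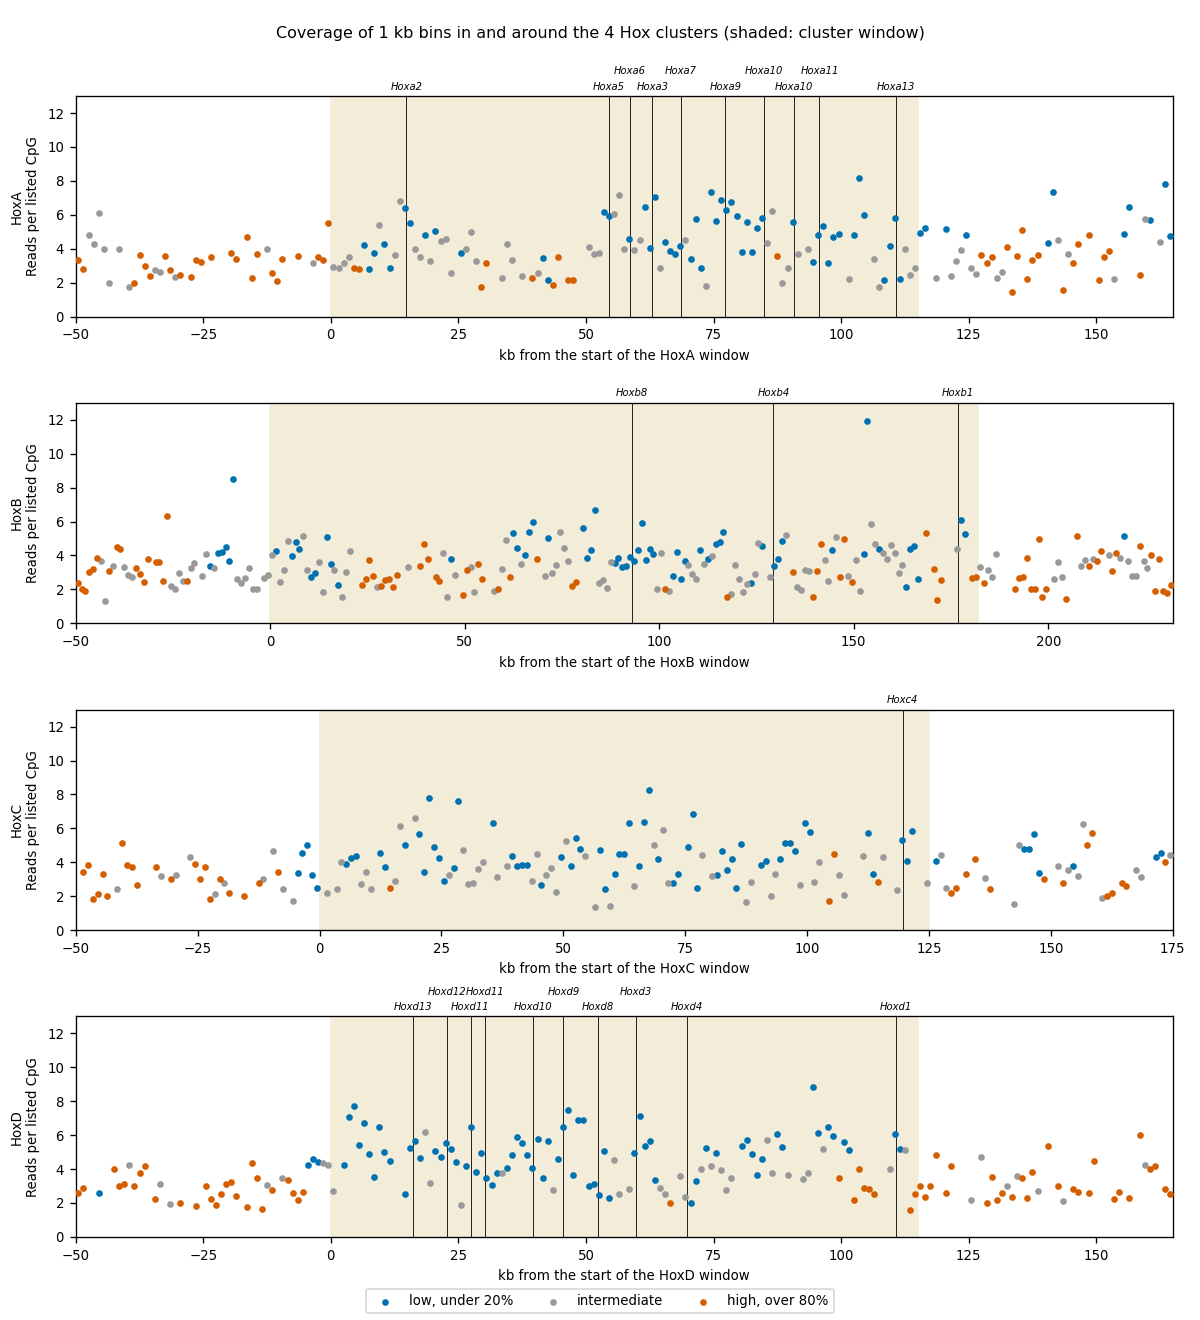
Reads per listed CpG of the same 1 kb bins (vertical axis) by distance from the start of the window in kb (horizontal axis), coloured by methylation call, with the window shaded and Hox promoters as vertical lines. The best covered bin of each window is low, and the highest of all is the HoxB bin with 11.9 reads per listed CpG.

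Low-methylated regions were taken as runs of 4 or more CpGs, each read 5 or more times, in which the level over any 3 successive CpGs was below 50% and no gap exceeded 500 bp; those with 30 or more such CpGs are called CpG-rich. Since low CpGs with many reads define them, their levels and coverage are descriptions. HoxD had 28 regions that covered 47.0% of its window, against 1.24% of its flanks. HoxA had 32 that covered 38.6%, against 4.07% of its flanks. HoxC had 34 that covered 31.2%, against 5.73% of its flanks, and HoxB had 40 that covered 23.4%, against 4.03%. CpG-rich regions numbered 18 in HoxD, 13 in HoxA, 12 in HoxC and 11 in HoxB. HoxB, the longest window, thus had the most regions but the fewest per 100 kb. It had 22.0 per 100 kb, against 24.3 in HoxD, 27.2 in HoxC and 27.8 in HoxA. Its covered share was the smallest, and 29 of its 40 regions were below the limit for CpG-rich.

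The longest region of all 4 clusters spanned 5518 bp at chr2:74516936-74522453, held the promoters of Hoxd11 and had 3.99% and 4.02 reads per listed CpG. The next in HoxD, 4916 bp at chr2:74583819-74588734, lay between the promoters of Hoxd4 and Gm14424 and had 6.23% and 6.94 reads. In HoxC the longest had 3878 bp at chr15:102764052-102767929 with 7.23%, and the next 3150 bp at chr15:102795446-102798595. In HoxB the longest had 3833 bp at chr11:96054503-96058335 with 10.1%, and the next 3796 bp at chr11:96161569-96165364 with 11.2%, between Hoxb8 and Hoxb4. In HoxA the longest had 3713 bp at chr6:52152462-52156174 around the promoter of Hoxa5 with 16.5% (14.5 to 18.7). The next in HoxA, 3438 bp at chr6:52182057-52185494 at Hoxa10, had 4.05% (2.98 to 5.49), so the intervals of the 2 HoxA regions do not overlap.

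The clusters held 15 CpG-rich regions of 3 kb or more, beside 619 in the rest of the autosomes. Their pooled level was 7.73%, against 4.15% in the 619, and their coverage 5.39 reads per listed CpG, against 5.51. The levels of the 15 ran between 3.52% and 16.5%, with a median of 6.38% and a median of 3.80% in the 619. In their surroundings, the median level within 5 kb of a region was 18.1% for the 15 in the clusters, against 62.0% for the others. As the 15 share 4 loci and lie close to each other, their surroundings overlap.

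Methylation in the clusters was lower than elsewhere at low and middle CpG density. Density here counts the listed CpGs from 100 bp before to 100 bp after a CpG, that CpG with them. For CpGs with 1 or 2, the level was 53.9% in the clusters, 84.1% in the flanks and 86.9% in the rest of the autosomes. For 3 to 5 it was 32.9%, 76.0% and 84.5% in the same order of regions. For 6 to 9 it was 15.2% in the clusters, 49.7% in the flanks and 70.3% in the rest. For 10 to 14 it was 6.48% in the clusters, 12.7% in the flanks and 29.5% in the rest. For 15 or more the order turned, with 4.02% (3.75 to 4.31) in the clusters, 3.68% (3.18 to 4.25) in the flanks and 3.27% (3.25 to 3.29) in the rest of the autosomes. Density counts only listed CpGs and is therefore a lower bound.

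Among the clusters, HoxB had the highest level in all 5 density classes, although its interval overlapped that of HoxA in 4 of them. For 3 to 5 listed CpGs it had 47.7%, HoxA 33.9%, HoxC 24.0% and HoxD 20.7%. For those with 15 or more, HoxB had 6.12%, HoxA 5.03%, HoxC 3.16% and HoxD 2.49%. Of the CpGs of the clusters, 27.6% were in the densest class, against 6.25% in the flanks and 5.43% in the rest of the autosomes.

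**Figure D3:**
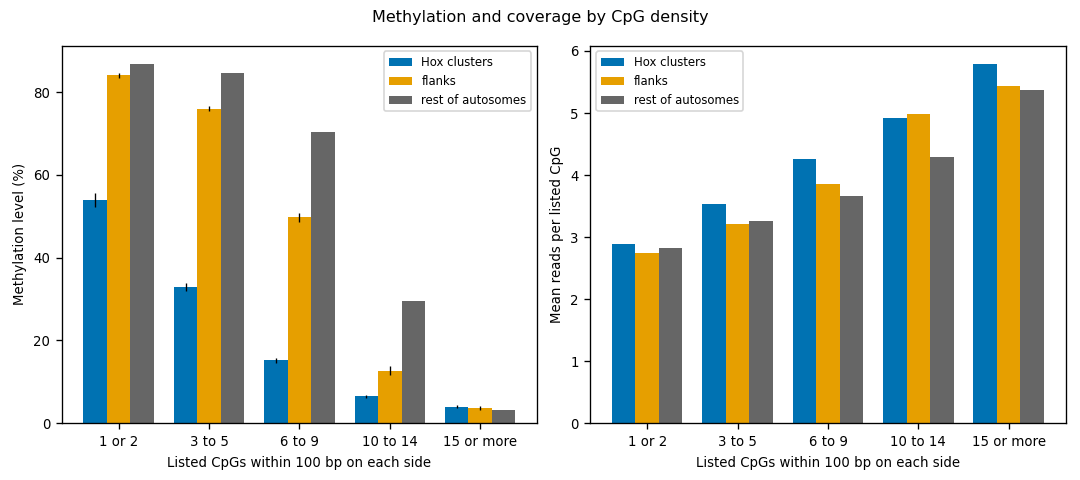
Methylation level in percent with 95% Wilson intervals (left) and mean reads per listed CpG (right) by density class (listed CpGs no more than 100 bp away), for the Hox clusters, their flanks and the rest of the autosomes. The clusters stay below both others in level up to 14 listed CpGs, and the 3 bars are within 1 percentage point of each other at 15 or more.

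Low methylation also reached far from the CpG-rich regions. Inside them the clusters had 6.04%, against 3.69% in the rest of the autosomes. Between 1 and 500 bp away the clusters had 26.6% and the rest 35.1%. Between 1001 and 2000 bp the clusters had 24.0% and the rest 74.8%, and between 5001 and 10000 bp the clusters had 21.7% and the rest 80.8%. Beyond 10000 bp the clusters had 38.6%, against 76.3% in the flanks and 83.7% in the rest. The level in the clusters thus stayed between 21.7% and 29.3% from 1 to 10000 bp, where it climbed with distance in the rest of the autosomes.

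Counted from any low-methylated region, short ones included, the level in the clusters climbed with distance too. Between 1 and 500 bp the clusters had 25.4% and the rest of the autosomes 43.1%, a wider gap than from the CpG-rich regions, and at all larger distances the gap was smaller. Between 501 and 1000 bp they had 50.1% and the rest of the autosomes 72.4%. Between 2001 and 5000 bp they had 71.3% and the rest 86.7%, and beyond 10000 bp 86.3% (81.3 to 90.2) and 87.9%. Only 97 CpGs of the clusters lay that far away. Inside regions of any kind were 69% of the CpGs of the clusters, against 18.2% in the flanks and 9.42% in the rest of the autosomes.

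Coverage was compared with other unmethylated DNA of the same density. A CpG is in the low state when the reads within 100 bp number 10 or more and have a level under 20%. The reads of the CpG itself are among them, so this filter selects CpGs by their own coverage, most of all at low density. At 1 or 2 listed CpGs the low state had 6.18 reads in the clusters and 6.63 in the rest of the autosomes. All CpGs of that class had 2.88 and 2.82. In the densest class the clusters had 5.85 reads per listed CpG in the low state, against 5.40 in the rest of the autosomes, a ratio of 1.08 (1.06 to 1.11). At 10 to 14 listed CpGs the ratio was 1.09 (1.06 to 1.11). At 6 to 9 listed CpGs it was 1.06 (1.03 to 1.10), and 3 to 5 listed CpGs gave 1.05 (1.0 to 1.10). The sparsest class, with 38 CpGs of the clusters, had 0.93 (0.80 to 1.09). Taken over all CpGs, without matching, the ratio over the rest of the autosomes was 1.55 for HoxD, 1.42 for HoxA, 1.41 for HoxC and 1.22 for HoxB.

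The clusters differed among themselves in this matched coverage. HoxD lay above the rest of the autosomes in the 4 classes of 3 or more, with ratios of 1.15 (1.08 to 1.24), 1.23 (1.17 to 1.29), 1.14 (1.09 to 1.20) and 1.10 (1.06 to 1.14) from sparse to dense. HoxB had 0.88 (0.79 to 0.97), 0.97 (0.92 to 1.03), 0.96 (0.91 to 1.01) and 1.05 (1.0 to 1.10). HoxC had 0.99 (0.89 to 1.10), 1.02 (0.96 to 1.08), 1.08 (1.03 to 1.13) and 1.21 (1.15 to 1.26). HoxA had 1.16 (1.10 to 1.21) at 10 to 14 and 1.01 (0.97 to 1.06) in the densest class.

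**Figure D4:**
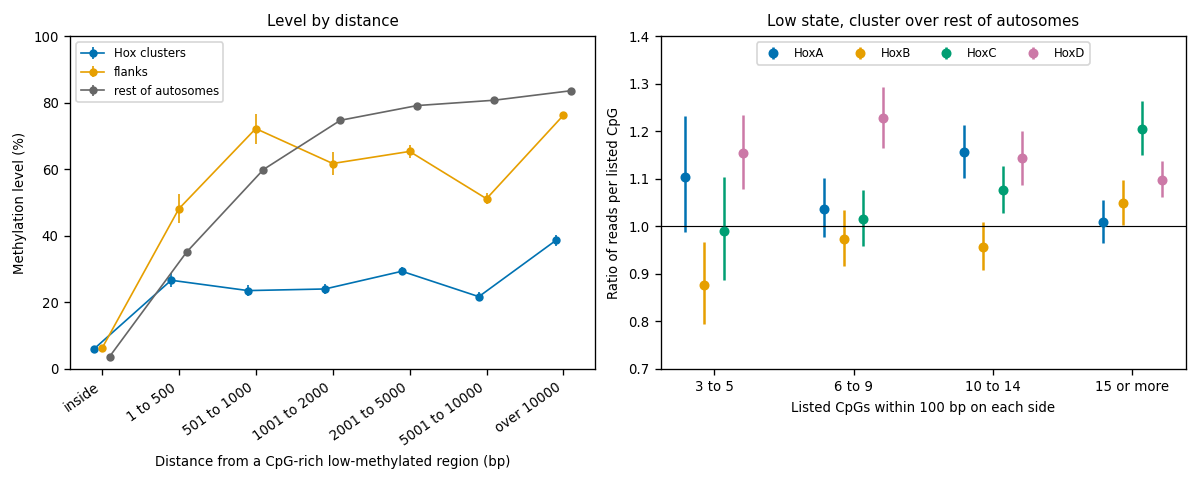
Left, methylation level in percent with 95% Wilson intervals by distance in bp from the nearest CpG-rich low-methylated region, for the Hox clusters, their flanks and the rest of the autosomes. Right, reads per listed CpG of each cluster divided by that of the rest of the autosomes, low state only, by density class with 95% intervals; HoxD lies above 1 in all 4 classes and HoxB is at 0.88 in the sparsest.

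At the promoters themselves, 20 placed Hox promoters of 19 genes had 8 or more CpGs, with a median level of 5.71% and a range of 0 to 24.0%. Of these, 19 were under 20% and none over 80%. Their coverage ran from 1.44 to 11.1 reads per listed CpG, with a median of 4.68. Placed promoters of other genes inside the windows with 8 or more CpGs, 11 of 8 genes, had a median of 1.62%, with the highest, 28.6% (34 of 119 reads), at Gm15050 in HoxA. Of these 11, 10 were under 20% and none over 80%, much as for the Hox promoters, and 3 are overlapping starts of Gm30134 that share reads. Promoters in the rest of the autosomes were not placed, so no share over all promoters stands beside these counts. The 3 others with fewer than 8 CpGs, at 5730596B20Rik, Gm14424 and Gm52902, had 14.6%, 11.8% and 7.69%. Over the 20 Hox promoters Spearman's rho was -0.55 between level and CpG number and -0.19 between coverage and CpG number, given as descriptions of promoters that share 1 library.

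The posterior genes, which pattern the limbs, the genital tubercle and the hind part of the trunk, ranged from 0 at Hoxa13 to 24.0% at 1 start of Hoxa10 among promoters with 8 or more CpGs. Hoxa13, printed above with its 45 CpGs, had no methylated read among 39. This would allow a level of up to 7.69% if all reads were independent, which they are not. Only 27 of its 45 CpGs are listed, with 1 to 3 reads each and 1.44 on average, the lowest coverage among the 20. Its GC content was 81%. Hoxd13, the counterpart in HoxD, had 5.38% (5 of 93 reads) and 2.74 reads per listed CpG, the lowest of the Hoxd genes with 8 or more CpGs. Upstream it was read more deeply, with 3.50 reads per listed CpG in bases 1 to 150 and 2.06 in bases 151 to 300. Hoxd12 had 3.64% and 4.58 reads, the Hoxd11 start with 25 CpGs 3.09% and 3.88 reads, and Hoxd10 3.81% and 4.77 reads. Hoxd9 had the highest level of the Hoxd genes among these, 6.04% (9 of 149 reads), and the highest coverage, 8.28 reads. Hoxa11 had 6.17% (5 of 81 reads) and 5.40 reads.

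Hoxa10, a gene of uterus and limb, has 2 starts in the promoter table. The one printed above had the highest level of the 20, 24.0% (12 of 50 reads, 14.3 to 37.4), and 2.78 reads per listed CpG. Both its parts carried methylated reads, with 8 of 34 in bases 1 to 150 and 4 of 16 in bases 151 to 300. The other start had 9.76% (4 of 41 reads, 3.86 to 22.6), so the intervals of the 2 starts overlap. With 500 bp added on each side the printed start had 12% and the other 5.33%.

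The central genes of the trunk were covered less evenly by the promoter table. Hoxa5, a gene of lung and neck skeleton, had 9.68% (15 of 155 reads), Hoxa6 3.53% (3 of 85 reads) and Hoxa7 14.3% (7 of 49 reads). Hoxb8 had the highest level of the 3 placed promoters of Hoxb genes, 15.9% (7 of 44 reads). Hoxb4, known for its part in blood stem cells, had the lowest level, 2.50% (1 of 40 reads), and the lowest coverage there, 2.86 reads per listed CpG. Hoxc4, the one Hoxc gene in the table, had 7.69% (4 of 52 reads) and 5.78 reads. The intervals of Hoxb8, 7.93% to 29.4%, and Hoxb4, 0.44% to 12.9%, overlap.

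The anterior genes, which pattern the hindbrain and the pharyngeal arches, included the best covered promoter. Hoxa3, a gene of thymus and parathyroid formation, had 11.1 reads per listed CpG, the highest of the 20, and 1.80% (4 of 222 reads). The start of Hoxa3 in the promoter table was placed at chr6:52163017-52163316. It lay between the promoters of Hoxa6 and Hoxa7, away from that of Hoxa2, so its place in the window was central. In the Hoxa3 sequence above, bases 1 to 150 hold 14 CpGs with 13 reads each on average and bases 151 to 300 hold 6 with 6.67. Hoxd1 had 8.03 reads, between 5 and 11 at each of its 29 CpGs, and 1.72% (4 of 233 reads). Hoxd3 had the lowest level of the Hoxd genes with 8 or more CpGs, 0.75% (1 of 134 reads), with 10.1 reads per listed CpG in bases 151 to 300 and 3.3 in bases 1 to 150. Hoxa2, which sets the identity of a pharyngeal arch, had 12.1% (4 of 33 reads), and Hoxb1, a hindbrain gene, 14.3% (6 of 42 reads) with the best coverage of the 3 Hoxb promoters, 5.25 reads.

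4 placed Hox promoters had fewer than 8 CpGs and were added after the values were seen. Hoxa9 had 27.3% (6 of 22 reads), Hoxd8 18.8% (3 of 16 reads) and Hoxd4 37.5% (3 of 8 reads). The upstream start of Hoxd11 had 0 of 12 reads, which would allow up to 25% if all reads were independent. At these depths the intervals are wide, for Hoxd4 from 13.7% to 69.4%. With 500 bp added on each side, Hoxd4 had 72.7% over 22 reads at 11 CpGs, whereas Hoxa9 had 8.54% and Hoxd8 8.57%. The sequence of Hoxd4 above, with its 4 CpGs, shows how few sites stand behind its value.

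**Figure D5:**
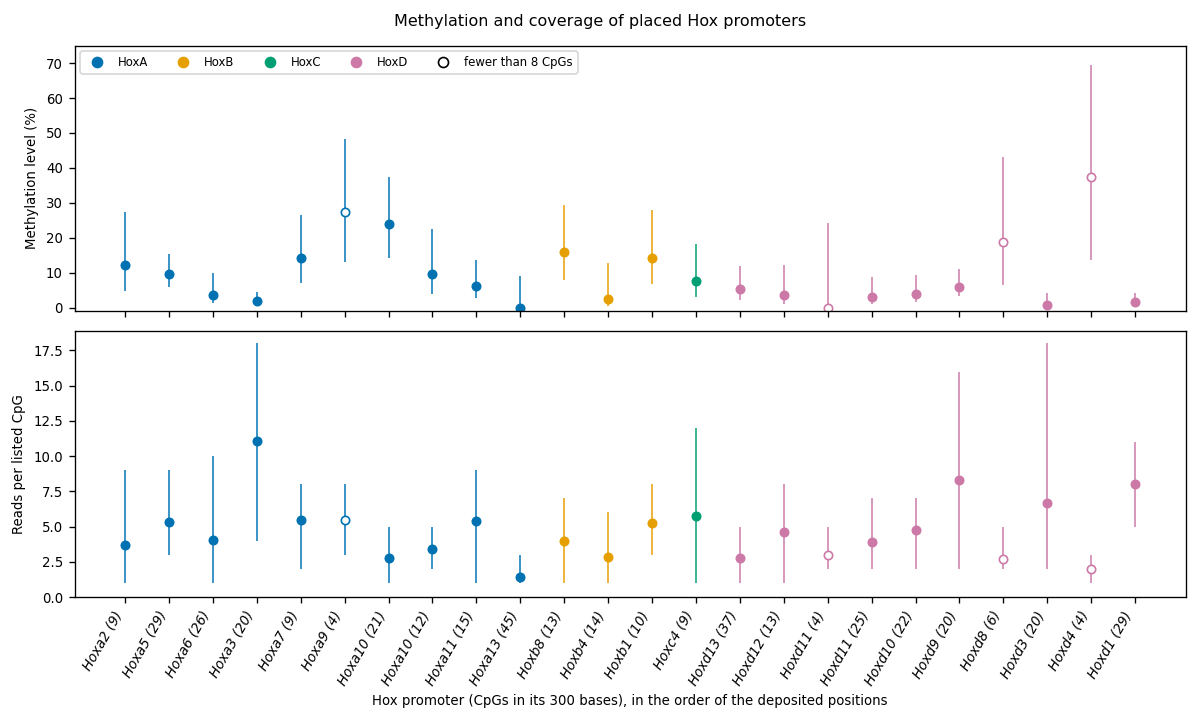
Methylation level with 95% Wilson intervals (top, percent) and reads per listed CpG with the lowest and highest CpG (bottom) of the 24 placed Hox promoters, coloured by cluster and ordered by position; the number in brackets is the CpGs in the 300 bases, and open points have fewer than 8. The level of Hoxa10 at 24.0% is the highest of the filled points, and Hoxa3 and Hoxa13 are the ends of coverage at 11.1 and 1.44.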

How the data were processed

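The deposited table holds, per the file headers, a position and 2 counts for every CpG: total and methylated reads, as raw counts from the authors. Per the submitters' processing notes, Bowtie and mm9 were used. Alignment settings and duplicate handling were not given in the sources used here, nor was the conversion rate. CpGs without reads are not listed, and whether positions count from 0 or 1 is not stated, so a shift of 1 bp is possible. In all there are 60995624 CpG reads, with a median of 3 per listed CpG.

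CpGs above 19 reads were left out of levels and coverage. Wilson intervals have a confidence of 95%. PCR reads are not independent molecules, and 1 read can add to several CpGs, so intervals cover counting error at most and are too narrow. The limit for a level of 0 is 3 reads of the total. It takes reads as independent and is therefore too low.

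No mm9 genome or annotation was used. RefSeq promoters (GRCm38.p6, 300 bases) were placed where their CpGs best matched the listed positions, with a match score of at least 0.7, a runner-up at most 0.7 times as good, at least 90% of listed CpGs explained and at least 8 CpGs; promoters with fewer, 4 of Hox genes and 3 of other genes in the windows, were added later. All listed CpGs were explained in all 24. Distances between placed promoters differed from those in RefSeq by at most 5 bp. Gene order and names are from RefSeq (GRCm38.p6). 

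Named in each cluster were the longest row of low bins, the 2 longest regions, the bins with the highest coverage and level, up to 5 high bins in the middle part, which is the central 50% of the window, and the promoters with the highest and lowest level and coverage. Members, lists and settings were chosen with earlier results of these data known. Software was Python 3.11.15, numpy 2.4.6, pandas 2.3.3, scipy 1.17.1 and matplotlib 3.10.9, and the statistics were tested on simulated data. Alternatives changed the read limit, the pooling, the window edges, the flanks, the bins, the density width, the state and the region settings.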

Additional observations from a re-analysis of the deposited data

How the results depend on the processing

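No paired analysis was possible because only 1 library was used, and no replicate could be left out. Of 83 alternative values, 56 moved by less than their interval or within 1.5 times for counts, and 27 moved further. The ratio in the low state at 1 or 2 listed CpGs, 0.93 with an interval that holds 1, was 1.05 with the state from CpGs beyond 100 bp, and no other ratio crossed 1. All 16 alternative counts of low bins stayed within 1.5 times.

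A limit of 12 reads gave levels of 15.4% in HoxA and 9.18% in HoxD. The mean over single CpGs with 5 or more reads was 12.7% in HoxA, 18.4% in HoxB, 8.96% in HoxC and 7.27% in HoxD, and with 10 or more 7.63%, 9.35%, 6.49% and 4.34%. The order of the clusters was kept at both. The ratio of coverage over flanks was 1.57 in HoxD with a limit of 12 reads, 1.2 in HoxA and 1.37 in HoxC with flanks of 100 kb, and 1.38 in HoxA with flanks of 500 kb. With means that allow for CpGs without reads it was 1.44 in HoxA, 1.25 in HoxB, 1.41 in HoxC and 1.92 in HoxD.

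In the low state, density over 250 bp gave ratios of 1.12 at 6 to 9, 1.03 at 10 to 14 and 1.04 at 15 or more. The state from CpGs beyond 100 bp gave 1.03 at 6 to 9. No read limit gave 0.77 at 1 or 2, 1.05 at 10 to 14 and 1.04 at 15 or more. Gaps up to 1000 bp joined the regions into 26 in HoxB and 16 in HoxD. Depth limits single promoters: at Hoxa13, 0 of 39 reads would allow a level of up to 7.69% even if all reads were independent. The cause of the other shifts was not tested.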

Other observations

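The clusters were also read in fixed tiles of 100 kb. The 10 tiles that touch a Hox window had a median level of 21.5%, against 83.6% over 23771 tiles in the rest of the autosomes, of which 1% were under 39.7%. Under 20% were 5 of the 10 tiles, and 4 of the 23771. The tile with most of HoxD, chr2:74500000-74600000, had 9.44% over 2493 listed CpGs. The 1 tile with a lower level, at chr6:47600000-47700000 with 7.22%, had 97 listed CpGs.

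Of the CpGs of the clusters, 31 had more than 19 reads and were left out of the levels above. In HoxD, 14 of them lay within 137 bp at chr2:74493759-74493895, in the outer end beside Evx2, with 20 to 45 reads each and 2 methylated reads among 483. In HoxA, 10 lay at chr6:52125738-52125774 at an even spacing of 4 bp, with 23 or 24 reads each and 1 methylated read among 236. The totals of 483 and 236 are sums over CpGs that span 137 and 37 bp, so 1 read can be counted many times in them. HoxC had none above 19 reads.

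Promoters of 2 Evx genes, which encode homeodomain proteins and neighbour the posterior ends of HoxA and HoxD, were also placed. Evx1, in the upper flank of HoxA, had 5.22% (6 of 115 reads) and 9.58 reads per listed CpG, between 3 and 19 at each of its 12 CpGs. Evx2, inside the HoxD window, had 0 of 39 reads methylated and 2.44 reads per listed CpG. This would allow up to 7.69% if all reads were independent.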
